A study of Mus musculus with 22 samples.

Results

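The downstream promoter flanks are regions of H3K4me3, the trimethylated form of lysine 4 of histone H3, whose midpoint lay between 1 and 3 kb downstream of the nearest annotated transcription start site, on the transcribed side. They were taken from 4 deposited tables of differential regions by the authors' own annotation, as the rows annotated Promoter3k with a distance to the start site above 0. No measured level entered that rule. It gave 2580 of 26201 listed regions: 942 of 13603 in the table for 3 weeks, 459 of 2923 for 8 weeks, 605 of 6593 for 11 weeks and 574 of 3082 for TNF. The flanks fell at 2254 genes, of which 1976 had a flank in 1 table, 251 in 2, 22 in 3 and 5 in 4. Their distances ran from 1000.5 to 2999.5 bp, the nearest downstream region inside the limit lay at 999.5 bp, and the nearest gene-body region beyond it lay at 3001.5 bp.

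The cells were cultured synovial fibroblasts, the mesenchymal cells of the joint lining, from mice of mixed CBA x C57BL/6J background at passages 4 to 5. Tg197 is an arthritis model with a transgene for human TNF, and wild-type (WT) mice served as its controls. ChIP-seq with a Diagenode antibody against H3K4me3 gave 21 libraries, 3 for each of 7 groups: Tg197 at 3, 8 and 11 weeks, WT at the same ages, and TNF-treated WT at 8 weeks. There was also 1 input library. The tables compare Tg197 with WT at each age and TNF-treated with untreated WT cells of 8 weeks, and the last comparison uses the same untreated libraries as the 8 week one. The labels leave out the promoter of the transgene, the dose and duration of TNF and whether libraries stand for separate mice or cultures, so the p-values measure only the spread between these libraries.

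H3K4me3 is written at active promoters by the SET1 and MLL methyltransferase complexes, and it sits on the nucleosomes to both sides of the start site. It usually reaches further into the transcribed side than away from it, and broad domains are known from highly transcribed genes and from genes of cell identity. In fibroblasts, TNF signals to the transcription factor NF-kB, whose targets include its own inhibitors, among them Nfkbia, which holds NF-kB in the cytoplasm, and Tnfaip3, which encodes the ubiquitin-editing enzyme A20.

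Of the 22 genes whose downstream flanks recurred in at least 3 tables, 17 had an entry in the RefSeq promoter table of build GRCm38.p6, and the 250 bases before the start site are printed for 3 genes whose flanks were higher in all 4 tables and for 2 whose flanks were lower wherever listed. The capitals mark a kB-type match, which is GGG, any 2 bases and TTTCC on either strand, which 464 of all 32851 windows of this length hold (1.41%). The windows are those of Nfkbia at chr12:55492648-55492897 (minus strand), the second of 2 listed start sites of Tnfaip3 at chr10:19015411-19015660 (minus strand), Hivep2 at chr10:13966129-13966378 (plus strand), Kctd12 at chr14:102982638-102982887 (minus strand) and Paqr6 at chr3:88364339-88364588 (plus strand), and each is given 5′ to 3′ on the strand of its gene.
Nfkbia: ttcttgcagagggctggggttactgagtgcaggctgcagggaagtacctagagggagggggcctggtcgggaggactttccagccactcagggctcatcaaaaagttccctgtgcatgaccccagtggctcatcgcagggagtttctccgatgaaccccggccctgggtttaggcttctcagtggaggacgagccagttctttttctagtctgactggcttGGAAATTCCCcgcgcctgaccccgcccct
Tnfaip3: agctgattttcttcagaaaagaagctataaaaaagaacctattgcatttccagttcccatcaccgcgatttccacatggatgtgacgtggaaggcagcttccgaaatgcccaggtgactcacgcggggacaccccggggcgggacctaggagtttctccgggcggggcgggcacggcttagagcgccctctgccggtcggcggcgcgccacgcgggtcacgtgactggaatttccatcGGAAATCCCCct
Hivep2: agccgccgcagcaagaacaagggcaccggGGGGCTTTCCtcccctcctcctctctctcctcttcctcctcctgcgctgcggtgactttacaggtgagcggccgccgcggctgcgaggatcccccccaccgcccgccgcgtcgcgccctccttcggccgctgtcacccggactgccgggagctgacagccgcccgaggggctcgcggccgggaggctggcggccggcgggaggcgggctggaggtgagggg
Kctd12: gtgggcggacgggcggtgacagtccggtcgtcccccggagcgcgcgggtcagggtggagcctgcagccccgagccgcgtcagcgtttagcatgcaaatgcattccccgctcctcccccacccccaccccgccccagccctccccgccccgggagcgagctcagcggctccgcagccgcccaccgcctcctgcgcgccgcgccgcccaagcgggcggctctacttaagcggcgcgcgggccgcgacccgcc
Paqr6: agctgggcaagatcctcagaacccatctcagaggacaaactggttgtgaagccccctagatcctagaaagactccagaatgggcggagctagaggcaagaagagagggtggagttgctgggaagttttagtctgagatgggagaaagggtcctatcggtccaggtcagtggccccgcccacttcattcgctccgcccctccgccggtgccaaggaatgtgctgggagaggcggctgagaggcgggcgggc
The match stood as GGAAATTCCC 29 to 20 bases before the start in Nfkbia, as GGAAATCCCC 12 to 3 bases before the start in Tnfaip3 and as GGGGCTTTCC 221 to 212 bases before the start in Hivep2. The 3 higher genes printed are thus those that hold a match. No other of the 17 genes had a match in this window, which says only that these letters are not there. Among the genes without one was Osbpl5, whose flank was also higher in all 4 tables. The midpoints of the flanks lie downstream of the start sites, and the flanks are given in the coordinates of mm9, the build the tables use. A long flank can reach across the start: that of Nfkbia at 3 weeks was 3800 bp long with its midpoint 1132.5 bp away. Sequences of the flanks were not used here.

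Each region carries 3 normalized read counts per group, and these libraries are named a, b and c in the order in which a table holds them. Before scaling, the flanks held between 55973 and 279437 reads per library. Only regions that the authors' scan called different were listed, so every flank had been selected on the contrast it is compared in, and the counts of called flanks below describe the lists and are no independent evidence. A flank is called higher or lower where the authors' adjusted p was under 0.05, and the words rose and fell are kept for flanks that also passed limma (Benjamini-Hochberg adjusted p under 0.05, over all regions of the table). In bulk cultures, fewer cells carrying the mark and less mark per cell cannot be told apart.

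Most downstream flanks were lower in Tg197 or TNF-treated cells, but the share that was higher was larger than in any other class of region 1 kb or more from a start site. By the authors' adjusted p, 162 flanks were higher and 772 lower at 3 weeks, beside 9.71% and 89.5% of all regions in that table. At 8 weeks 202 were higher and 243 lower, beside 20.2% and 77.2% of all listed regions. The counts were 253 and 327 at 11 weeks, beside 29.8% and 67.0%, and 161 and 399 with TNF, beside 24.6% and 72.3%. Among called downstream flanks the higher ones thus made up 17.3%, 45.4%, 43.6% and 28.7% in the order 3, 8 and 11 weeks and TNF. The upstream flanks at the same distances stood at 2.34%, 2.02%, 21.0% and 5.59%, and gene-body regions 3 to 10 kb from the start at 1.28%, 7.46%, 27.2% and 3.87%. Just inside the limit, regions 250 bp to 1 kb downstream stood at 82.5%, 70.8%, 66.4% and 66.6%, so the downstream flank lay between the core of the promoter and the gene body in each table.

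Of the 942 flanks at 3 weeks, limma found 97 that rose and 769 that fell. Among all listed regions it called 4.68% upward and 88.9% downward. At 11 weeks 255 and 323 of 605 flanks rose and fell, beside 29.6% and 67.7% of all listed regions. With TNF the counts were 116 and 193 of 574, beside 16.5% and 42.6%. At 8 weeks limma called 0 flanks in either direction (0.0% of all listed regions in each), while 273 had an unadjusted p under 0.05 and voom, which weights the recovered reads, also called 0. The groups did not overlap in 892 flanks at 3 weeks (94.7%, against 92.6% of all listed regions), 338 at 8 weeks (73.6%, against 63.2%), 573 at 11 weeks (94.7%, against 95.9%) and 409 with TNF (71.3%, against 74.2%). Single libraries decided several of these counts. Without WT library c of 8 weeks, limma called 116 flanks that rose and 230 that fell at 8 weeks. Without WT library c of 3 weeks it called 0 at that age, and the counts fell to 25 and 440 when WT library a was left out and to 29 and 477 when WT library b was. Without Tg197 library a, 55 flanks rose at that age. With TNF, leaving out TNF library b or c, or WT library a or b, left 0 calls, and without WT library c 126 rose and 376 fell.

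These counts keep the scaling of the deposited tables, and the split between the directions moved with it. Scaling each library to the listed regions moved the median of all listed regions up by 0.67, 0.71, 0.34 and 0.51, after which limma called 141, 145, 269 and 164 flanks that rose and 0, 3, 24 and 24 that fell. Scaling to the listed regions within 1 kb of a start moved it by -0.33, -0.12, -0.15 and -0.10 and gave 3, 8, 201 and 68 that rose and 776, 176, 336 and 316 that fell. The direction of a weakly lower flank therefore depends on the scale.

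The WT library c of 8 weeks stood apart in the flanks that were lower. Its median log2 level against the WT mean was -0.52 in the flanks lower in Tg197 at 8 weeks, beside 0.32 and 0.19 in WT libraries a and b and -0.97, -0.65 and -0.63 in the 3 Tg197 libraries. In the flanks lower with TNF it stood at -0.39, beside 0.24 and 0.15 in WT libraries a and b and -0.5, -0.76 and -0.57 in the treated ones. In the flanks that were higher at 8 weeks it stood at 0.03, between its 2 fellow controls at -0.1 and 0.09, and the Tg197 libraries lay at 0.6, 0.47 and 0.56. The lower flanks of both comparisons therefore rest on a control group whose medians are spread. In the higher flanks the control medians lay close together, but this does not hold for each flank. Csnk1g3, higher at 8 weeks, held 48.2, 152 and 110 reads in WT libraries a, b and c. Depth, as reads per unit of normalized count, was 1.39 in WT library c at 8 weeks, against 0.684 and 0.637 in a and b. The Tg197 libraries a, b and c of that age had 1.87, 0.742 and 1.26. In the lower flanks the deepest treated library had the lowest median at 3 weeks, 8 weeks and with TNF (depths 1.72, 1.87 and 2.75), but not at 11 weeks. The part of depth in these results was not tested.

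The direction of a flank went with its distance from the start site. At 3 weeks 36.1% of called flanks between 1 and 1.5 kb downstream were higher, and the share was 17%, 5.43% and 4.17% in the following steps of 0.5 kb. At 8 weeks the shares were 62.4%, 43.9%, 24.7% and 20.3%, and with TNF 38.6%, 25.2%, 14.8% and 13.2%. The decline was shallower at 11 weeks, from 51.9% over 42.9% and 39.3% to 34.7%. Upstream flanks between 1 and 1.5 kb stood at 1.52%, 5.13%, 15.6% and 3.9% (3, 8 and 11 weeks and TNF), below the downstream flanks of the same distance in each table.

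**Figure D1:**
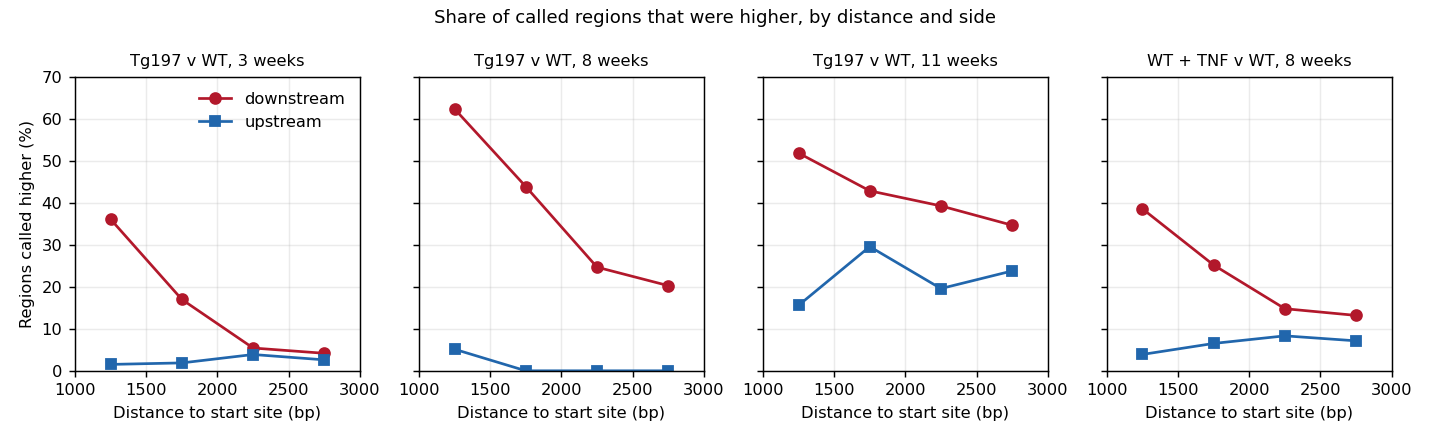
Share of called regions that were higher (percent, y axis) against the distance to the start site (bp, x axis, steps of 0.5 kb) for downstream and upstream flanks, with 1 panel per comparison. In each panel the downstream line starts above the upstream line, at 36.1%, 62.4%, 51.9% and 38.6% for 3, 8 and 11 weeks and TNF, and falls with distance.

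The higher and lower flanks also differed in how far they reached and in the genes they belonged to, given here as medians without a test. At 3 weeks the midpoints of higher flanks lay 1390.5 bp from the start and those of lower flanks 2008.5 bp. The medians were 1348.5 and 1904.5 bp at 8 weeks, 1692.5 and 1899.5 bp at 11 weeks, and 1306.5 and 1638.5 bp with TNF. A share of 68.5% of higher and 29.0% of lower flanks at 3 weeks had an edge within 1 kb of the start, against 63.9% and 35.4% at 8 weeks, 44.7% and 33.9% at 11 weeks and 73.3% and 46.9% with TNF. Genes with a higher flank were longer, with median lengths of 22.5, 31.4 and 34.3 kb at 3 weeks, 8 weeks and TNF against 13, 8.97 and 9.62 kb for lower flanks. At 11 weeks the order was the other way round, 17.5 against 19.5 kb. The same split was seen in regions within 1 kb of the start (26.1 against 15.7, 24.8 against 12.3 and 25 against 11.6 kb, and 21.8 against 23.4 kb at 11 weeks), so it was not particular to the flanks.

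**Figure D2:**
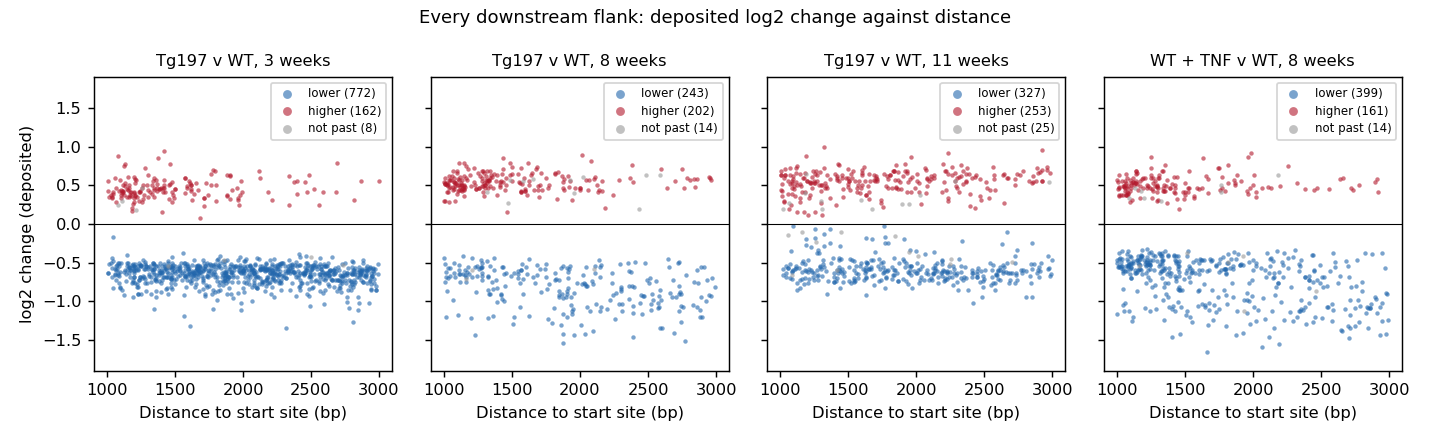
The deposited log2 change of each downstream flank (y axis) against its distance to the start site (bp, x axis), with 1 point per flank, coloured by call, and 1 panel per comparison. Higher flanks crowd towards 1 kb (median distance 1390.5 bp at 3 weeks) and lower flanks spread to 3 kb (median 2008.5 bp).

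The sizes of the changes were moderate. Higher flanks had median folds over the WT mean of 1.35, 1.45, 1.48 and 1.4 in the order 3, 8 and 11 weeks and TNF, and lower flanks of 0.645, 0.582, 0.655 and 0.65. Over all flanks the median log2 change by limma was -0.61, -0.5, -0.38 and -0.5, against -0.7, -0.86, -0.6 and -0.58 over all listed regions.

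The tables also give an enrichment per group, taken here as a ratio over the input although the header does not name its reference, and it did not move with the normalized reads by the same amount. In the flanks its log2 ratio stood above that of the normalized reads by medians of 0.51, 0.61, 0.07 and 1.08 in the same order. All higher flanks were also higher by enrichment, which with median offsets above 0 is no separate evidence. Of the lower flanks, 70 of 772 at 3 weeks (9.07%), 62 of 243 at 8 weeks (25.5%), 4 of 327 at 11 weeks (1.22%) and 311 of 399 with TNF (77.9%) had a higher enrichment in Tg197 or treated cells. The lower calls with TNF were thus mostly in the opposite direction by the second measure, and those at 11 weeks were mostly in the same direction by both.

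**Figure D3:**
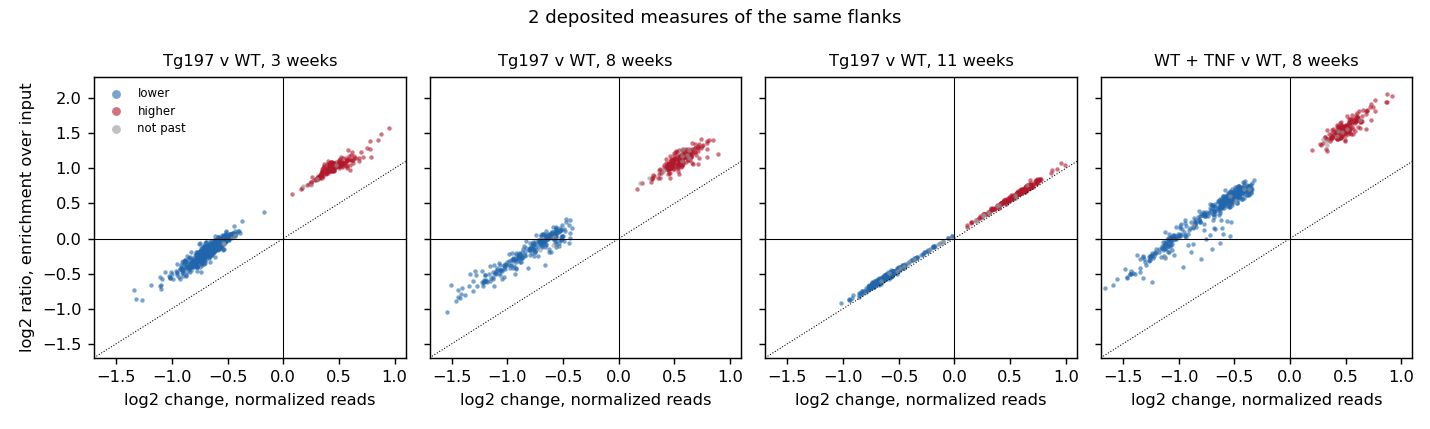
The log2 ratio of enrichment over input between the groups (y axis) against the log2 change of normalized reads (x axis), with 1 point per downstream flank and 1 panel per comparison. At 11 weeks the points lie near the diagonal (median offset 0.07), and with TNF they lie above it (median offset 1.08), so that 311 of 399 lower flanks fall above 0 on the y axis.

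Downstream flanks of 22 genes recurred in at least 3 tables, each overlapping a flank of the same gene in another of them, of which 12 were never lower, 8 never higher and 2, Nat14 and Pdgfrb, went both ways. The flanks of Adamts5, Dusp6, Lfng and Pias4 were linked in part through another table: those of Adamts5 at 11 weeks and with TNF, of Dusp6 at 3 weeks and with TNF, of Lfng at 8 and 11 weeks and of Pias4 at 3 and 8 weeks did not overlap directly. Those listed in all 4 were Nfkbia, Tnfaip3, Hivep2, Osbpl5 and Dusp6, and their flanks were higher in each table by the authors' adjusted p, except that of Dusp6 with TNF (adjusted p of 0.0781 in the authors' deposited table). None of the 5 changed sign under either scaling. Scaling to the listed regions raises all log2 changes, so only the other scaling could have turned them. Its shifts were small, at -0.33, -0.12, -0.15 and -0.1 in the order 3, 8 and 11 weeks and TNF. Since the TNF and 8 week tables share their controls, they are given side by side and are not independent.

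Nfkbia encodes the inhibitor IkB-alpha. At 3 weeks its flank (chromosome 12, 56590601 to 56594400) held 1139.8, 1222 and 809 normalized reads in Tg197 libraries a, b and c against 598, 729.8 and 518 in WT, and every Tg197 library lay above every WT library. The log2 change was 0.77 ± 0.22 (SE, n = 3 per group; limma adjusted p = 0.0143). At 8 weeks the flank (chromosome 12, 56590501 to 56592600) held 484, 436 and 581 against 304, 278 and 272, a log2 difference of 0.80 ± 0.20 (limma adjusted p = 0.0725). The groups again lay apart, although the test was not passed. The flank of 3 weeks was 3800 bp long and reached across the start site. That of 8 weeks was 2100 bp long, with its midpoint 2082.5 bp from the start. At 11 weeks the values were 581, 703 and 833 against 375, 379 and 367 (log2 change 0.90 ± 0.11, limma adjusted p = 0.00305), and with TNF 742, 903 and 925 against 467, 443 and 450.2 (0.91 ± 0.14, limma adjusted p = 0.046). The treated mean was thus 1.72, 1.76, 1.89 and 1.89 times that of the controls in the order 3, 8 and 11 weeks and TNF, with no overlap in any of them.

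Tnfaip3 encodes A20, which ends NF-kB signalling by editing ubiquitin chains. Its flank at 3 weeks (chromosome 10, 18732601 to 18735000) held 629.5, 733 and 441 reads in Tg197 and 281, 374 and 278 in WT, and rose by 0.93 ± 0.22 on the log2 scale (SE, n = 3 per group; limma adjusted p = 0.0143). At 8 weeks it held 529.5, 334 and 447 against 278, 279.6 and 263 (1.6-fold, limma adjusted p = 0.0725). At 11 weeks the values were 619, 807 and 832 against 470.2, 460.5 and 433 (1.66-fold, limma adjusted p = 0.00434), and with TNF 772, 1047 and 906 against 518, 526 and 443 (1.83-fold, limma adjusted p = 0.046). The groups lay apart in all 4 comparisons, and the flank rose in the 3 in which limma made calls.

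Hivep2 encodes a zinc-finger protein that binds kB-type enhancer sequences. Its flank held 375, 428 and 349 reads in Tg197 and 268, 288 and 286 in WT at 3 weeks, and 312, 268 and 278 against 156, 201 and 187 at 8 weeks. At 11 weeks it held 232, 217 and 296 against 177, 164 and 199.97, and with TNF 248, 255 and 216 against 148, 175 and 158. The folds were 1.37, 1.57, 1.38 and 1.5, smaller than those of Nfkbia, and the groups lay apart each time. It rose at 3 weeks, 11 weeks and with TNF (limma adjusted p = 0.0231, 0.00609 and 0.046), and at 8 weeks the limma adjusted p was 0.0725.

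Osbpl5 encodes an oxysterol-binding lipid transfer protein, and Dusp6 a phosphatase that inactivates ERK kinases. The Osbpl5 flank held 198, 183 and 273 against 131, 151 and 160.2 reads at 3 weeks and 462, 438 and 471 against 265, 417 and 313 at 11 weeks, with folds of 1.48 and 1.38. At 8 weeks it held 219, 144 and 133 against 129, 124 and 108, and with TNF 199, 259 and 257 against 166, 173 and 178. It rose at 3 weeks, 11 weeks and with TNF (limma adjusted p = 0.0195, 0.0051 and 0.0463; 0.147 at 8 weeks), and the groups lay apart in each table. For Dusp6 the folds were 1.56, 1.49, 1.46 and 1.26, and at 11 weeks its groups overlapped, with 155, 241 and 275 reads in Tg197 and 142, 170.1 and 148 in WT.

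**Figure D4:**
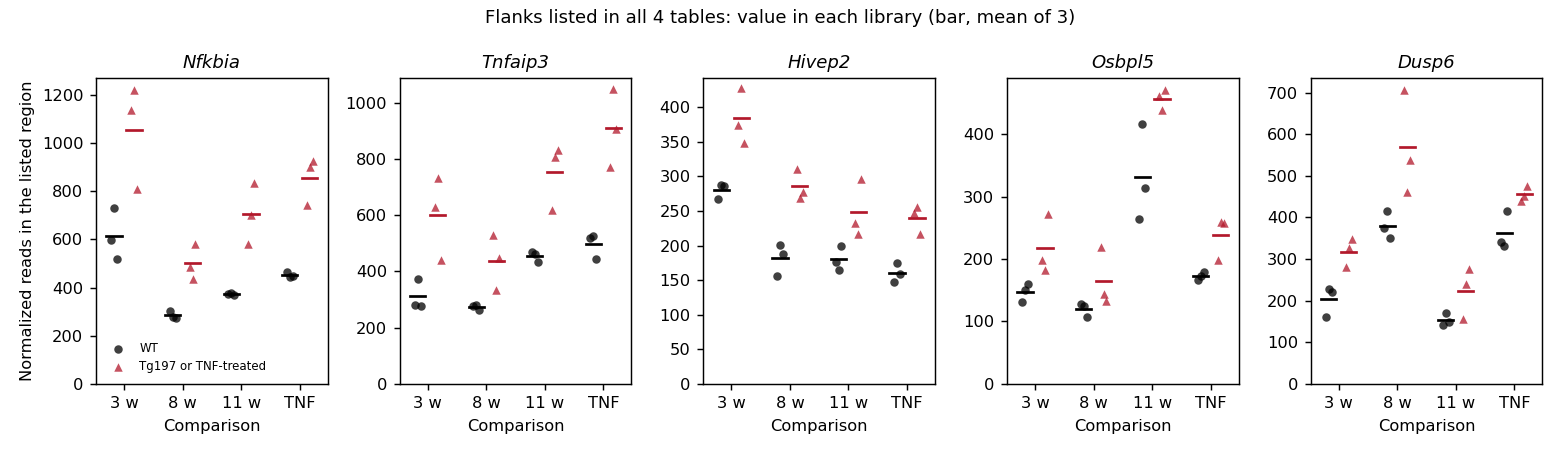
Normalized reads in the listed flank (y axis, from 0) in each library for the 5 genes listed in all 4 tables, with treated and control libraries as points and the mean of 3 as a bar. Treated libraries lie above the controls in every comparison, apart from Dusp6 at 11 weeks, where the groups overlap.

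Of the genes listed in 3 tables and never lower, 6 have known products: Actb (a cytoplasmic actin), Adamts5 (an aggrecan-cleaving protease), Ccnd1 (cyclin D1), Plscr1 (phospholipid scramblase 1, an interferon-induced gene), Ptprj (a receptor tyrosine phosphatase) and Yap1 (a transcriptional effector of the Hippo pathway). Plscr1 stood 1.6-fold higher at 8 weeks, 1.47-fold at 11 weeks and 1.46-fold with TNF, and rose at 11 weeks and with TNF (limma adjusted p = 0.00438 and 0.046). Ptprj rose 1.45-fold at 3 weeks, 1.58-fold at 11 weeks and 1.39-fold with TNF. The Ccnd1 flank held 233, 252 and 228 reads in Tg197 at 11 weeks against 161, 168 and 169.6 in WT, and it rose there and at 3 weeks (folds 1.43 and 1.44; 1.37 at 8 weeks). Adamts5 rose at 11 weeks and with TNF (folds 1.26 and 1.33), and at 3 weeks it stood at 1.36. Its groups overlapped at 3 and 11 weeks. Actb had the smallest folds of these genes, 1.27, 1.2 and 1.24, and passed limma at 11 weeks alone (adjusted p = 0.0413). Actb has near-identical processed pseudogenes, so its read counts are uncertain.

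The flanks that recurred without ever being higher belonged to Dhrs3 (a retinaldehyde reductase), Kctd12 (an auxiliary subunit of GABA-B receptors), Lfng (a glycosyltransferase of Notch receptors), Myg1, Paqr6 (a progestin receptor family member), Pias4 (a SUMO ligase), Pold2 (a DNA polymerase delta subunit) and Prr12. Paqr6 held 71.5, 58.6 and 96.4 reads in Tg197 and 133, 114 and 124 in WT at 3 weeks, a log2 change of -0.74 ± 0.23 (SE, n = 3 per group; limma adjusted p = 0.015). At 8 weeks it held 67.3, 109 and 112 against 257, 203 and 127, and with TNF 134, 56.7 and 94.6 against the same controls' 302, 237 and 144. The groups lay apart in each, and the folds were 0.61, 0.49 and 0.42. Lfng fell to 0.62 at 11 weeks and 0.63 with TNF, and stood at 0.74 at 8 weeks. Dhrs3 fell to 0.76 and 0.63 in the same comparisons and stood at 0.6 at 8 weeks. Kctd12 stood at 0.66, 0.7 and 0.7 at 3 weeks, 8 weeks and with TNF. Scaling to the listed regions turned the sign of Kctd12, Myg1 and Pias4 at 3 weeks, of Kctd12, Lfng, Myg1, Pias4 and Pold2 at 8 weeks and of Kctd12 with TNF, whereas Paqr6 and Dhrs3 kept theirs. Of the genes that went both ways, Nat14 turned sign at 3 weeks and Pdgfrb with TNF under the same scaling.

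Between pairs of tables few flanks overlapped at all. By at least 1 base, 39 flanks of 3 weeks met a flank of 8 weeks (4.14% of the former and 8.5% of the latter), and of the 38 past the authors' adjusted p in both, 11 were higher in both, 23 lower in both and 4 lower and then higher. For 3 and 11 weeks there were 52 overlaps (5.52% and 8.43%), 51 of them past in both, with 25 higher in both, 19 lower in both and 7 lower and then higher. For 8 and 11 weeks there were 33 (7.19% and 5.45%), 29 of them past in both, of which 14 were higher in both and 9 lower in both. Against the TNF table, 47 flanks of 3 weeks overlapped (4.99% and 8.19%) and 39 of 11 weeks (6.45% and 6.62%). Among those past in both tables for 3 weeks and TNF, 11 of 45 were higher in both, 30 lower in both and 4 higher and then lower. For 11 weeks and TNF 17 of 35 were higher in both, 9 lower in both, 3 lower and then higher and 6 higher and then lower. A flank can be missing from a table because no region there passed the authors' selection, so these shares say nothing of flanks that were not listed.

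Beyond the recurrent genes, other regulators and targets of NF-kB had higher flanks at 3 and 11 weeks and with TNF. Of 31 genes on the list, 6 had a downstream flank in the 3 week table, of which 5 rose (Nfkbia, Nfkbiz, Tank, Tnfaip3 and Vcam1) and Traf2, an adaptor of TNF receptors, fell. The counts were 2 higher of 2 at 8 weeks (Nfkbia and Tnfaip3), 7 of 7 at 11 weeks (Birc3, Nfkb1, Nfkbia, Nfkbie, Ripk2, Tnfaip3 and Vcam1) and 4 of 4 with TNF (Nfkbia, Ripk2, Sod2 and Tnfaip3). The median log2 changes were 0.66, 0.73, 0.72 and 0.87, beside -0.7, -0.86, -0.6 and -0.58 over all listed regions, and no member changed sign under either scaling. Scaling to the listed regions raises all log2 changes, so it could not turn the higher members. The other scaling shifted them by only -0.33, -0.12, -0.15 and -0.1, so the kept signs are no separate evidence. Listed members had been selected for a difference, and the remaining genes of the list had no listed flank.

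Single members of the list showed the size of these differences. Nfkbie, another inhibitor of NF-kB, held 659.6, 532 and 738 reads in Tg197 at 11 weeks against 376, 315 and 357 in WT, with no overlap, and rose by 0.87 ± 0.12 (SE, n = 3 per group; limma adjusted p = 0.00305). Birc3, a ubiquitin ligase of the TNF receptor complex, held 209.9, 224 and 222 against 136, 147 and 112 and rose 1.66-fold. Vcam1, an adhesion molecule of activated synovial fibroblasts, rose 1.38-fold at 3 weeks and 1.5-fold at 11 weeks. Tank, a TRAF-binding regulator, held 119, 119 and 147 reads against 75.6, 80.5 and 67.8 at 3 weeks and rose 1.72-fold. Sod2, the mitochondrial superoxide dismutase and an NF-kB target, held 439.6, 499 and 457 reads in TNF-treated cells and 259, 237 and 266 in untreated ones, and Ripk2, a kinase of NOD signalling, 555, 749.7 and 685 against 417, 451 and 395. Both rose with TNF (1.83-fold and 1.58-fold), and the treated libraries lay above all controls. Traf2 held 107, 100.3 and 103 reads in Tg197 at 3 weeks and 170.1, 169 and 206 in WT, and fell to 0.57 of the WT mean.

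Chemokine and interferon genes had few downstream flanks. Of 27 chemokine and cytokine genes only Cxcl1 and Cxcl12 had listed flanks, both at 11 weeks. Cxcl1, a neutrophil attractant, held 447, 367 and 397 reads against 272, 261 and 218 and rose 1.61-fold, while Cxcl12 stood at 1.26 with overlapping groups (limma adjusted p = 0.0515). Of 29 interferon response genes, the transcription factor Irf1 rose 1.68-fold at 3 weeks (349, 326 and 309.6 reads against 236, 197 and 152) and 1.7-fold at 11 weeks. Irf2 rose 1.25-fold and Ifit2, an interferon-induced translation inhibitor, 1.57-fold at 11 weeks. Others on the list fell, namely Ifi35 and Irf5 at 3 weeks, Irf5, Irf8 and Oasl1 at 11 weeks and Irf3 with TNF, and Ifit3 was lower at 8 weeks. The list was thus split, with 2 higher and 2 lower at 3 weeks and 3 and 3 at 11 weeks, and Ifi35 and Irf5 at 3 weeks and Ifit3 at 8 weeks changed sign under scaling to the listed regions, as Irf2 at 3 weeks did under scaling to the regions near the start. No antigen presentation gene had a listed downstream flank in any table.

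At 8 weeks the cytoskeleton and adhesion list had 9 listed flanks of 35 genes, and all 9 were higher by the authors' adjusted p, with a median log2 difference of 0.47 beside -0.86 over all listed regions. They belonged to Acta2, Actb, Actn4, Cd44, Cdc42ep3, Rhoa, Rock1, Rock2 and Tln1, which encode actins, an actin cross-linker, a hyaluronan receptor, a Cdc42 effector, the small GTPase RhoA with its kinases, and talin. None passed limma at that age, where no region did, and none changed sign under either scaling. Only scaling to the regions near the start could have turned higher flanks, and its shift at 8 weeks was -0.12. Actn4 held 204, 208 and 219 reads in Tg197 and 123, 132 and 173 in WT, and Cd44 330.2, 301 and 345 against 212, 237 and 268, with groups apart in both. Rock1 held 176, 149.7 and 175 against 51.2, 163 and 85.4, and its groups overlapped. Side by side with TNF, 5 of 5 listed members were higher (Actb, Actn4, Cdc42ep3, Itgav and Tagln2; median 0.52), of which 3 rose. Itgav, an integrin subunit, rose 1.52-fold and Tagln2 1.33-fold. At 11 weeks the list went both ways, with Actb and Pxn (1.41-fold) higher and Itga1, Myh9, Myl9 and Rhoa lower, and Myh9 changed sign under scaling to the listed regions. At 3 weeks 2 were higher and 1, Itga1 at 0.6 of WT, fell.

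Members of the Hippo pathway stood beside them. Tead1, the DNA-binding partner of Yap1, held 500.2, 480.1 and 486 reads in Tg197 at 8 weeks and 224, 349 and 362 in WT, a 1.57-fold difference with groups apart. Yap1 was 1.4-fold higher at 8 weeks and rose 1.39-fold at 11 weeks and 1.35-fold with TNF. Smad3, a mediator of TGF-beta, rose 1.43-fold at 11 weeks, when Tgfb2 fell to 0.66. With TNF, Cyr61, a known target of Yap1, fell to 0.69 of the untreated mean, and Tgfb1 stood at 0.76 (limma adjusted p = 0.0515) and changed sign under scaling to the listed regions. Over the list of 29 TGF-beta and Hippo genes the counts were 1 higher and 0 lower at 3 weeks, 2 and 0 at 8 weeks, 2 and 2 at 11 weeks and 2 and 2 with TNF. The higher flank at 3 weeks, of Ltbp3 (1.23), turned sign under scaling to the regions near the start, and a lower one at 11 weeks, of Amotl2 (0.93), under scaling to the listed regions.

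Flanks of bone, Wnt and BMP signalling genes were mostly lower, as were all listed regions (89.5%, 77.2%, 67.0% and 72.3% lower in the order 3, 8 and 11 weeks and TNF). Of 49 genes, 9 had a flank at 3 weeks, of which 7 were lower (Bmp4, Dkk3, Id1, Id3, Rnf43, Sfrp1 and Smad6), 1 was higher (Spp1, osteopontin) and 1 was not past the authors' p (Runx2). At 11 weeks 5 of 5 fell, namely Axin2, Bmp4, Lrp6, Smad6 and Wnt5b. At 8 weeks and with TNF 2 of 2 were lower in each (Runx2 and Sfrp1, and Id1 and Id3). The medians were -0.53, -0.55, -0.53 and -0.69, close to those of all listed regions at -0.7, -0.86, -0.6 and -0.58. Bmp4, a bone morphogenetic protein, held 304, 251 and 261 reads in Tg197 at 11 weeks and 421, 448 and 616 in WT, and fell to 0.55 (log2 change -0.85 ± 0.13 (SE, n = 3 per group), limma adjusted p = 0.00434). Rnf43, a ubiquitin ligase that removes Wnt receptors, held 40.5, 34.2 and 67.9 against 116, 107 and 122 at 3 weeks, and Sfrp1, a secreted Wnt antagonist, 137, 74.2 and 89.6 against 218, 187 and 179.9. Both fell, to 0.41 and 0.51 of WT, and Sfrp1 stood at 0.59 at 8 weeks. Axin2, a feedback inhibitor of Wnt signalling, fell to 0.63 at 11 weeks and Lrp6, a Wnt co-receptor, to 0.72. The flanks of Dkk3, Id1, Id3 and Smad6 at 3 weeks and of Runx2 at 8 weeks changed sign under scaling to the listed regions, and none of those at 11 weeks did.

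Transcription factors of limb and mesenchyme had 6 listed flanks at 11 weeks, of which 5 fell (among them Foxd1, Irx3, Irx5 and Osr2; median of the 6 flanks -0.63, against -0.6 over all listed regions). The remaining flank, of Tbx18, was not past the authors' p but passed limma in the upward direction. None of the 5 that fell changed sign under either scaling. Irx3 held 65.3, 131 and 95.4 reads in Tg197 and 181, 186 and 154 in WT, and fell to 0.56, and Foxd1 fell to 0.59. In other tables the list also went up: Msx1, a homeobox factor, rose 1.37-fold with TNF and Foxf2 was 1.27-fold higher at 3 weeks (limma adjusted p = 0.0576). At 8 weeks Irx3 stood at 0.74 with overlapping groups, and its sign turned under scaling to the listed regions. Hox genes had 1 or 2 flanks per table, all lower under the deposited scaling, of which Hoxc9 at 3 weeks fell to 0.56 of WT. Those of Hoxd9 at 8 weeks, Hoxa10 and Hoxa13 at 11 weeks and Hoxa13 with TNF changed sign under scaling to the listed regions.

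Matrix and protease genes had few flanks. Fbln2, a matrix fibulin, rose 1.3-fold at 3 weeks and Col12a1, a fibril-associated collagen, fell to 0.64 at 11 weeks. The other 2 matrix genes listed at 11 weeks were not past the authors' p, and 1 of them passed limma in the upward direction. The proteases Adam12 and Adamts5 rose at 11 weeks (1.49-fold and 1.26-fold), and Adamts1 rose with TNF (1.36-fold). The metalloprotease Mmp11 and the cathepsin gene Ctsk fell at 3 weeks (0.68 and 0.65) and Timp3, an inhibitor of metalloproteases, fell with TNF (0.74), and all 3 changed sign under scaling to the listed regions. At 8 weeks nearly the same Timp3 flank was higher (1.29-fold, limma adjusted p = 0.107), against the same controls.

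Cell cycle genes were split. Ccnd1 and Cdkn1a, an inhibitor of cyclin-dependent kinases, rose at 3 and 11 weeks, while Cdk4 (0.67) and Pcna (0.7) fell at 3 weeks and Aurkb (0.68) and Cdk2 (0.62) at 11 weeks. Cdk4 and Pcna changed sign under scaling to the listed regions, as did Cdc20, which was lower at 8 weeks (0.63). Cdkn1a held 274, 281 and 286 reads in Tg197 at 11 weeks against 201, 211 and 244 in WT, and in an overlapping flank 145, 143 and 176 with TNF against 206, 228 and 226. It rose in the former (1.28-fold) and fell in the latter (0.7), and the groups lay apart in both. By enrichment both Cdkn1a flanks were higher, at 9.83 against 7.32 at 11 weeks and 4.64 against 3.19 with TNF. The same held for 311 of all 399 flanks lower with TNF.

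The flanks of the labelled cell type and of other cell types were few. Of 18 synovial fibroblast markers, Pdgfra and Pdgfrb, the receptors for platelet-derived growth factor, and Vcam1 rose at 11 weeks (1.2-fold, 1.17-fold and 1.5-fold). Thy1, a marker of sublining fibroblasts, was 1.6-fold higher at 8 weeks, with 328, 318 and 309.7 reads in Tg197 and 206, 184 and 207 in WT. With TNF Pdpn, podoplanin, rose 1.51-fold, while Pdgfrb was lower (0.77) with overlapping groups and turned sign under scaling to the listed regions. At 3 weeks Hbegf, Pdgfrb and Vcam1 were higher and Dkk3 and Eng lower, of which Dkk3 and Eng turned sign under scaling to the listed regions and Hbegf under scaling to the regions near the start. Of 25 leukocyte markers, Itgam fell at 3 weeks (0.65), Cd79a and Fcer1g were lower at 8 weeks (0.46 and 0.52) and Coro1a fell at 11 weeks (0.65), in tables where 89.5%, 77.2% and 67.0% of all listed regions were lower. Itgam turned sign under scaling to the listed regions. Of 15 endothelial markers only Pecam1 had a flank, which rose 1.58-fold at 11 weeks, and of the nerve sheath and epithelial markers Sox10 rose at 11 weeks (1.49-fold), Ncam1 was higher and Cdh1 fell at 3 weeks. Of the 19 cartilage, bone and fat markers Sox9 was lower at 8 weeks, where it turned sign under scaling to the listed regions, and fell with TNF (0.69), and Cebpa fell at 11 weeks (0.66). Muscle markers had no listed flank. The part of other cells in these results was not tested.

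Some of the largest increases lay outside the lists. At 3 weeks Sox11, a transcription factor of progenitor cells, held 242, 221 and 134 reads in Tg197 against 131, 103 and 91.2 in WT, and Ch25h, the cholesterol 25-hydroxylase, 288, 289.9 and 278 against 126, 188 and 160.2. Both rose, by 0.85 ± 0.24 and 0.87 ± 0.18 on the log2 scale (SE, n = 3 per group; limma adjusted p = 0.0143 for both), with groups apart. Ptp4a3, a phosphatase, rose 1.62-fold. At 11 weeks Dram1, a lysosomal regulator of autophagy, held 257, 241 and 263 against 118, 151 and 113 and rose 1.99-fold. Clec2g, a C-type lectin, rose 1.95-fold (196, 195 and 208 against 127, 91.6 and 88.8), Lhx9, a LIM homeobox factor, 1.72-fold and Fgf10, a mesenchymal growth factor, 1.71-fold. In all of these the Tg197 libraries lay above the WT libraries.

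At 8 weeks the largest differences upward included those of Csnk1g3 (a casein kinase, 1.8-fold), Nfkbia, Pcmtd1 (1.73-fold), Coq10b (a coenzyme Q-binding protein, 1.72-fold), Stt3a (an oligosaccharyltransferase subunit, 1.68-fold) and Cul3 (a ubiquitin ligase scaffold, 1.67-fold). Coq10b held 184, 183 and 198 reads in Tg197 and 98.0, 124 and 106 in WT, and the groups lay apart. The WT libraries were more spread in Csnk1g3, Pcmtd1 and Cul3 (SD 52.4, 36.2 and 41.5) than in Coq10b (SD 13.4). With TNF the largest were in Nfkbia, Sod2, Tnfaip3, Jak2 (a kinase of cytokine receptors), Slc7a2 (a cationic amino acid transporter), Arf4, Phlda1 and Nudcd1. Jak2 held 557, 685 and 643 reads in treated and 273, 389.9 and 374 in untreated cells, and rose 1.82-fold (log2 change 0.87 ± 0.17 (SE, n = 3 per group), limma adjusted p = 0.046). Slc7a2 rose 1.69-fold, Arf4 1.69-fold and Phlda1 1.68-fold, whereas Nudcd1 stood at 1.66 (limma adjusted p = 0.112).

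The largest decreases were found in other genes. At 3 weeks Miat, a long non-coding RNA gene, held 55.6, 47.0 and 29.9 reads in Tg197 against 106, 113 and 117 in WT, and fell to 0.39. Zfp74 (0.4), Map2k6, a kinase of the p38 pathway (0.44), Uqcr10, a subunit of respiratory complex III (0.46), Ggt5 (0.47) and Spdef, an epithelial Ets factor (0.47), fell as well. At 8 weeks Edar, the ectodysplasin receptor, held 41.7, 70.1 and 63.4 against 189, 182 and 112, and Ccr7, a chemokine receptor, 41.7, 80.9 and 85.5 against 254, 192 and 115. With TNF the Ccr7 flank held 79.6, 34.1 and 57.8 against 245, 158 and 99.8 and fell to 0.34. In these flanks of Edar and Ccr7 the groups lay apart, and WT library c was the lowest control. Further decreases with TNF were in Wfdc3 (0.33), Plin5 (0.36), Hsd11b2 (0.36) and Ppp4c (0.37). At 11 weeks Tmem19 held 39.6, 67.6 and 55.3 reads in Tg197 and 121, 92.4 and 115 in WT, and fell to 0.49, beside Slc35a5 (0.52), Gsg1 (0.52) and Cdadc1 (0.53).

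Where a gene had both a downstream flank and a region within 1 kb of its start in the same table, the change of the flank was compared with that of the region at the start within each library, so that the library's scale cancels. Flank and core belonged to the same start site in 78 of 83 pairs at 3 weeks, 43 of 46 at 11 weeks and 50 of 54 with TNF. At 8 weeks this held for 18 of 18. Both regions of a pair had been selected for a difference in the same contrast. The counts and p-values of pairs therefore describe the lists and are no independent evidence. At 3 weeks there were 83 such downstream pairs, of which 35 fell and 3 rose relative to the core by limma, over 141 pairs on both sides (47.5% fell and 2.13% rose), and 41 had an unadjusted p under 0.05. At 11 weeks 10 of 46 fell and 4 rose (32.3% and 6.15% over 65 pairs), and with TNF 10 of 54 fell and 4 rose (19.7% and 7.04% over 71 pairs). At 8 weeks limma called 0 of 18 (0.0% in each direction over 28 pairs), with 4 at an unadjusted p under 0.05 and 6 called without WT library c. Upstream pairs fell more often still at 3 and 11 weeks, in 32 of 58 and 11 of 19, a difference that was not tested. Without WT library c of 3 weeks 10 downstream pairs were called at that age, and 22 and 20 without WT library a and b. With TNF 0 were called when TNF library b or c was left out, 7 when WT library a was and 3 when WT library b was.

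In 37 of the 81 downstream pairs at 3 weeks in which both regions passed the authors' adjusted p, the core was higher and the flank lower. In 34 both were lower, in 8 both higher and in 2 the flank was higher and the core lower. With TNF the corresponding counts were 10, 32, 4 and 3 of 49, and at 11 weeks 6, 10, 17 and 5 of 38. At 8 weeks they were 2, 8, 5 and 1 of 16. A higher core with a lower flank was the most frequent kind of pair at 3 weeks, pairs with both regions lower at 8 weeks and with TNF, and pairs with both higher at 11 weeks.

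**Figure D5:**
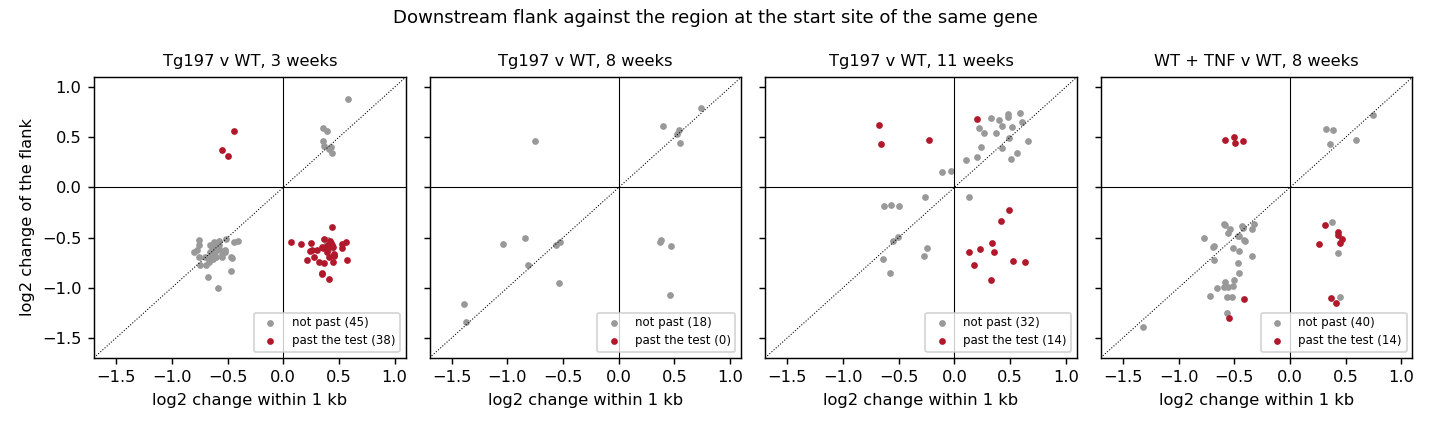
The log2 change of the downstream flank (y axis) against that of the region within 1 kb of a start site of the same gene (x axis), with 1 point per pair and 1 panel per comparison; the pairs that differed by limma are marked. At 3 weeks most marked pairs lie below the diagonal (35 of the 38 called), and at 8 weeks none is marked.

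Single pairs show what this looks like. At 3 weeks Snupn, the snurportin that imports spliceosomal particles, held 199.5, 137 and 155 reads in the flank in Tg197 against 278, 314 and 291 in WT, while its core held 207, 225 and 211 in Tg197 against 161, 189 and 155 in WT. The log2 change of the flank relative to the core was -1.21 ± 0.19 (SE, n = 3 per group; limma adjusted p = 0.00614). Osbpl5 went the other way at 3 weeks, with a flank of 198, 183 and 273 against 131, 151 and 160.2 and a core of 93.0, 92.2 and 137 against 141, 129.7 and 166. Its relative change was 1.00 ± 0.17 (limma adjusted p = 0.00614). At 11 weeks Dennd2a, a Rab exchange factor, had a flank of 66.4, 56.4 and 72.8 against 109, 125 and 135 and a core of 255, 272 and 284 against 213, 219 and 211, a relative change of -1.24 ± 0.16 (limma adjusted p = 0.00102). Both regions of each gene had groups that lay apart, except the core of Osbpl5.

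With TNF the immediate early gene Ier3 had a flank of 298, 345 and 268 reads in treated cells against 232, 200.5 and 213 in untreated ones. Its core held 194, 143 and 183 against 254, 221 and 262, so the signal was higher in the flank and lower at the start, a relative change of 1.00 ± 0.21 (SE, n = 3 per group; limma adjusted p = 0.0115). Of 2 flanks of Mef2d, a muscle and neuronal transcription factor, the nearer, which was not past the authors' p, changed by 1.00 ± 0.26 relative to the core (limma adjusted p = 0.0212) and the other by 0.18 (limma adjusted p = 0.583). Sbno2, a corepressor of NF-kB, changed by -1.01 ± 0.30 (limma adjusted p = 0.0318). At 8 weeks the largest relative difference upward among the named pairs was that of Ccnd1, 1.16 ± 0.33 (limma adjusted p = 0.149).

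The promoters of genes with flanks were compared in the RefSeq table over the 300 bases from 250 before to 50 after the start. At 3 and 11 weeks fewer than 80% of the genes had an entry in at least 1 direction, so that check is void there. At 8 weeks 162 of 202 genes with a higher flank (80.2%) had an entry, with a median of 24 CpG and 4.32% of them with 5 or fewer CpG, against a median of 18 and 11.1% among 198 of 243 lower ones (81.5%). With TNF the medians were 25 and 22 CpG, and 2.29% and 5.28% had 5 or fewer, in 131 of 161 (81.4%) and 322 of 398 genes (80.9%). Over all 27025 genes of the table the median was 7 CpG and 42.8% had 5 or fewer, so genes with flanks in either direction had more CpG than the table as a whole. Genes with a higher and a lower region within 1 kb of the start had medians of 22 and 19 at 8 weeks and 23 and 20 with TNF. Fewer than 80% of those genes had an entry in at least 1 direction. The CpG content thus cannot be called particular to the flanks. The kB-type letters stood in 5 of the 162 genes with a higher flank at 8 weeks (3.09%) and 2 of the 198 with a lower one (1.01%), and with TNF in 5 (3.82%) and 3 (0.932%), beside 1.89% of all genes. For regions within 1 kb of the start the shares were 2.41% (higher) and 1.49% (lower) at 8 weeks. With TNF they were 2.83% and 1.28%. The AP-1-type letters TGANTCA stood in 8.02% and 5.56% at 8 weeks and in 3.05% and 4.04% with TNF, beside 8.97% of all genes.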

How the data were processed

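H3K4me3 ChIP-seq of 21 libraries in 7 groups of 3 was analysed from 4 deposited tables of regions in mm9 coordinates. BWA, TopHat, TopHat2, Cufflinks and Cuffdiff are named with mm9 in the submitters' processing notes, with neither roles nor versions, and no source used here names a region caller. The authors deposited, per the file headers, 3 normalized read counts per group and their mean (a signal), an enrichment (a ratio), a log2 fold change and p-values per region and per best window, and no best-window p above 0.0001 was listed. The scaling is not stated. Low values were whole multiples of 1 read in 100.0% of values within a tolerance of 0.02, which gave the reads per library used with voom. The control column was read as WT: in 54 regions identical in the 8 week and TNF tables, 162 of 162 control values were equal in reads and 1 of 162 treated values. No replicate number stands beside the 3 values of a cell, so the letters a, b and c follow their order in it and do not link groups.

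Each table was fitted on all its regions with limma 3.58.1 in R 4.3.3, on log2(value + 0.5) with an intercept and the group, with Benjamini-Hochberg adjustment and a threshold of 0.05. A fold is the ratio of group means, and a log2 change is limma's on the log2(value + 0.5) scale, which understates changes of low regions. For pairs, the log2 value of the region within 1 kb was subtracted from that of the flank in each library before the fit. The fit was also run on simulated data in which most regions were unchanged and no library stood apart. The tables used here hold mostly called regions, so that run does not show how the fit behaves on them. The TNF table and the 8 week table were scaled separately and are tested only within themselves.

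Genes were named by rule. Among flanks past the authors' adjusted p with groups apart, these were the 8 largest increases and the 8 largest decreases with a group mean of at least 30 normalized reads, 1 region per gene. Added were up to 4 called genes per gene list, flanks overlapping in at least 3 tables, and 5 pairs per direction. Other list members are named in counts only, and predicted genes and near-identical families were counted and not described. Some results of the rule are not reported here. The members and lists were chosen with earlier results of these data known. Alternatives tried were another pseudocount, a filter on low values, both scalings, voom, leaving out each library, a stricter authors' adjusted p and a stricter overlap. The comparison with the enrichment was chosen after seeing the data. Sequences came from the RefSeq promoter table, in which 79.4% of the genes with a flank had an entry.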

Additional observations from a re-analysis of the deposited data

Results flagged for a closer look

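Some overlapping flanks of the same gene moved one way in 1 comparison and the opposite way in another, with the groups apart in both. In each case the difference between the comparisons was not tested, and the values below are the second log2 change minus the first. Under scaling to the listed regions 13 of the 21 stayed opposite in sign. Some overlaps were short, so the regions compared can be largely different stretches of a gene. The following counts are of flanks called in both, with at least 50 percent of each region shared (1 base in brackets). Lower then higher were 1 for 3 and 8 weeks (4), 3 for 3 and 11 weeks (7) and 2 for 8 and 11 weeks (2). Higher then lower were 0 for 8 and 11 weeks (4) and 2 for 3 weeks and TNF (4). For 11 weeks and TNF, 1 was lower then higher (3) and 4 were higher then lower (6).

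Between 3 and 8 weeks, 4 flanks were lower and then higher. They belonged to Poldip3 (-0.6 and 0.48, a difference of 1.08), the bromodomain gene Brpf3 (-0.61 and 0.57, 1.18), Birc6, an inhibitor of apoptosis (-0.54 and 0.7, 1.25), and Atp5a1, a subunit of ATP synthase (-0.55 and 0.43, 0.98). All 4 turned to above 0 at 3 weeks under scaling to the listed regions (0.07, 0.06, 0.13 and 0.12).

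Between 3 and 11 weeks, 7 flanks went from lower to higher. The differences were 1.57 in Cd244, 1.35 in the predicted gene BC005764, 1.49 in Mgat5b, 1.17 in the zinc-finger gene Zfp148, 1.44 in Heatr5b, 1.46 in Tnfrsf18, a TNF receptor family member, and 1.26 in Nat14. Nat14 also differed between 8 and 11 weeks, by 1.54, and so was lower at the 2 earlier ages (-0.66 and -0.94) and higher at 11 weeks (0.6). Under scaling to the listed regions its value at 3 weeks was 0.0, while the other 6 flanks stayed below 0 at 3 weeks, between -0.25 and -0.06.

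Between 8 and 11 weeks, the flanks of Eea1, Tjp1 and Rhoa were higher and then lower. The differences were -1.22 in Eea1, an endosomal tether, -1.32 in the tight junction gene Tjp1 and -1.06 in Rhoa (0.56 and -0.5). The Eea1 flank ran from 95403801 to 95404900 on chromosome 10 at 8 weeks and from 95404801 to 95405800 at 11 weeks.

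Against TNF, Vav2 and Spns1 were higher in Tg197 cells at 3 weeks and lower with TNF, with differences of -0.95 and -0.85. From 11 weeks to TNF the differences were -1.05 in Hic1, -0.88 in Cdkn1a, 0.93 in Tmed7 and -0.92 in Gapdh. Under scaling to the listed regions Spns1 and Gapdh turned to 0.1 and 0.05 with TNF and Tmed7 to 0.07 at 11 weeks. By enrichment Vav2, Spns1, Hic1, Cdkn1a and Gapdh were higher with TNF, as were 311 of all 399 flanks lower with TNF. It is therefore not particular to these genes. Gapdh has many near-identical pseudogenes, so its read counts are uncertain.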

How the results depend on the processing

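No paired analysis was possible because the table cells carry no replicate numbers. Another pseudocount, a filter on a mean of at least 20 normalized reads and voom kept every count of flanks that rose or fell within 1.5 times, and those of the pairs too where they were run. Scaling to the listed regions left 0, 3, 24 and 24 flanks that fell at 3, 8 and 11 weeks and with TNF, and gave 145 that rose at 8 weeks. Scaling to the regions within 1 kb of a start gave 3, 8 and 68 that rose at 3 weeks, 8 weeks and with TNF, and 176 and 316 that fell at 8 weeks and with TNF. An adjusted p of 0.001 in the authors' table left 267 called flanks at 8 weeks, 341 at 11 weeks and 298 with TNF. Of the flanks lower with TNF, 87 were also lower by enrichment. An overlap of 50 percent of each region left 19 shared flanks at 8 and 11 weeks and 25 at 11 weeks and TNF.

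By distance, scaling to the listed regions gave median log2 changes of 0.13, 0.06, 0.04 and 0.01 at 3 weeks in steps of 0.5 kb from the start, all reversed. The medians were 1.17, 0.19, 0.0 and -0.13 at 8 weeks, of which the second was reversed, 0.50, -0.02, -0.22 and -0.19 at 11 weeks, and 0.10, -0.02, -0.15 and -0.47 with TNF, of which the first was reversed. This scaling shifts every region of a table by nearly the same amount. The decline with distance, broken only in the last step at 11 weeks, therefore could not change and is no separate evidence. Among the flanks given with values, those that reversed under this scaling included, at 3 weeks, Mmp11 (0.11), Cdk4 (0.08), Kctd12 (0.09), Pcna (0.14), Ctsk (0.03) and Itgam (0.01), at 8 weeks Kctd12 (0.21), Lfng (0.28), Irx3 (0.31) and Cdc20 (0.07), at 11 weeks Amotl2 (0.25), and with TNF Timp3 (0.08), Kctd12 (0.01), Tgfb1 (0.12) and Pdgfrb (0.15). Ltbp3 at 3 weeks reversed under scaling to the regions near the start (-0.03). Further members of the lists that turned sign are named above with their lists. The pair of Frmd6 at 8 weeks ranged from -0.19 without WT library c, which reversed it, to 0.43 without WT library a. The cause was not tested.

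Leaving out 1 library at a time gave from 0 to 140 flanks that rose and from 0 to 767 that fell at 3 weeks, from 0 to 116 and from 0 to 230 at 8 weeks, from 229 to 246 and from 306 to 317 at 11 weeks, and from 0 to 126 and from 0 to 376 with TNF. Called pairs ranged from 10 to 44, from 0 to 6, from 12 to 17 and from 0 to 19. With 3 libraries a group, 11 weeks was the comparison whose counts moved least.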
